A study of Mus musculus with 2 samples.

Results

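The receptors of the TREM family (triggering receptors expressed on myeloid cells) and the adaptors that carry the signal of some of them were examined for H3K27ac. This is an acetylation of histone H3 found at active promoters and enhancers. The 8 genes were chosen by name: Trem1, Trem2, Trem3, Treml1, Treml2 and Treml4, which lie together on mouse chromosome 17, and Tyrobp and Hcst, which encode the adaptors DAP12 and DAP10 and lie side by side on chromosome 7. They are 8 of 21866 mouse genes with a protein-coding transcript in GENCODE M21. The marks were measured by chromatin immunoprecipitation and sequencing (ChIP-seq) in macrophages cultured from bone marrow of C57BL/6J mice, with no stimulus. The series has 1 group of 2 biological replicates from separate biosamples under a shared donor entry, each made from 10 ng of DNA. Age and sex were not recorded for them. No condition is contrasted with another, so the values below are a description of 2 libraries, and their spread may leave out differences between animals.

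TREM receptors have a single immunoglobulin-like domain outside the cell. Most activating members hold a charged residue in the membrane by which they pair with DAP12, whose tail carries an ITAM, a motif that recruits the kinase Syk once phosphorylated. DAP10 instead carries a motif that recruits phosphoinositide 3-kinase and Grb2. In macrophages and microglia, Trem2 binds lipids, lipoproteins and cell debris and is known for its part in phagocytosis and survival, while Trem1 is known as an amplifier of inflammatory responses in neutrophils and monocytes.

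The authors deposited 4 lists of peaks on mm10: 1 for each replicate (29543 and 29345 peaks), and a replicated list (32877 peaks) and a pooled pseudoreplicated list (32909 peaks) made from both libraries together. Each peak has the authors' fold enrichment, a ratio whose baseline their notes do not name, and peaks are ranked here by that fold within their own list, rank 1 being the highest. The median fold of a peak was 7.03 in replicate 1 and 7.04 in replicate 2, and the median width was 898 bp and 962 bp. A peak that reaches within 1 kb of the start of any protein-coding transcript is a promoter peak, and every other peak is called distal. A gene with a promoter peak in both replicates is called marked. The cells' label was checked against markers: all 8 macrophage markers (Csf1r, Adgre1, Cd68, Itgam, Spi1, Mertk, Fcgr1 and Lyz2) were marked, and none of 7 neutrophil, 5 platelet and megakaryocyte, 3 B cell, 4 T and NK cell, 2 plasmacytoid dendritic cell and 3 fibroblast markers had a promoter peak in any of the 4 lists. Gene lists here were chosen with earlier results of these data known, so this check is a description and not a test of the label. The sources used here give no read depth. Regions without a peak fell under the threshold of the authors' peak calling and need not lack the mark. Fewer cells with the mark and less of it per cell cannot be told apart in such bulk samples.

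Of the 8 genes, 4 were marked: Trem2, Treml2, Tyrobp and Hcst. Of all genes with a protein-coding transcript, 38.5% (8414 of 21866) were marked, and no difference is read from so few genes. Neither replicate had a promoter peak at the remaining 4, Trem1, Trem3, Treml1 and Treml4. The same 4 genes were marked in each replicate, and the folds of a gene lay closer to each other than to those of the next gene in the order Trem2, Hcst, Tyrobp and Treml2.

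**Figure D1:**
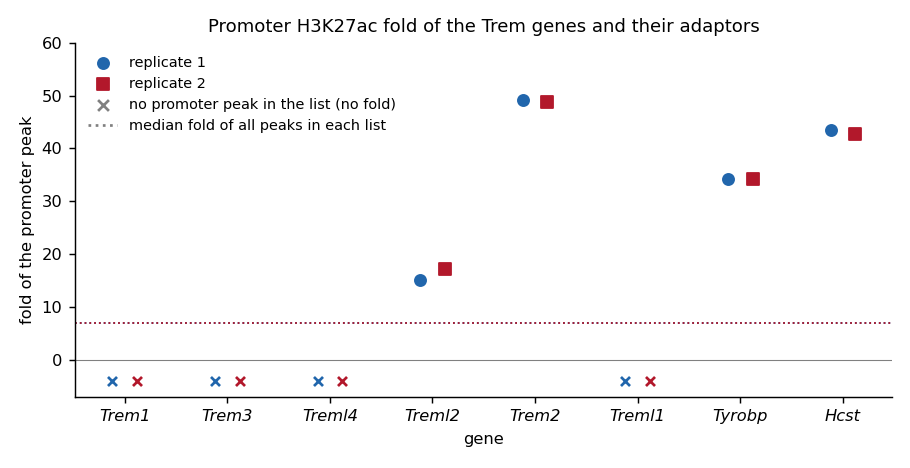
Fold of the promoter peak of each gene (y axis, the authors' ratio) in replicate 1 (circles) and replicate 2 (squares), with crosses for genes without a promoter peak and a dotted line at the median fold of all peaks of each list (7.03 and 7.04). Trem2, Hcst and Tyrobp lie at 34.2 or above in both replicates, Treml2 at 15.1 and 17.2, and the other 4 genes have no promoter peak.

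Trem2 carried one of the highest peaks of the genome. Its promoter peak reached a fold of 49.1 in replicate 1, rank 23 of 29543 peaks, and of 48.8 in replicate 2, rank 33 of 29345. Among genes with a promoter peak it stood 12th of 8658 in replicate 1 and 19th of 8911 in replicate 2. Trem2 spans chr17:48346401-48354147 on the forward strand. The peak ran over chr17:48345473-48350846 in replicate 1 (5374 bp, 471st by width) and chr17:48345375-48351020 in replicate 2 (5646 bp, 454th by width), and so covered 57.4% and 59.6% of the gene. Its summit lay in an intron, 451 bp and 286 bp downstream of the nearest annotated start. In both lists made from both libraries the fold was 52.9 (rank 29).

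Hcst, the gene of DAP10, had the second highest promoter peak of the 8 genes and the widest. Its fold was 43.5 in replicate 1 and 42.7 in replicate 2, ranks 106 and 126. The gene spans chr7:30417712-30419854 on the reverse strand, with the start of Nfkbid, which encodes a nuclear IkB protein, 1878 bp away on the other strand. In replicate 1 the peak covered chr7:30416142-30422245 (6104 bp) and a separate Nfkbid peak followed at chr7:30422320-30424144 (1825 bp, fold 27.4, rank 1302). In replicate 2 a single peak covered chr7:30416151-30424165 (8015 bp, 142nd by width). The summit lay 243 bp and 222 bp upstream of the nearest Hcst start, between both genes. Both peaks also reach the Nfkbid promoter, so the signal cannot be given to either gene alone.

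Tyrobp, the gene of DAP12, spans chr7:30413760-30417585 on the forward strand, and its 3′ end lies 126 bp from the 3′ end of Hcst. The fold of its promoter peak was 34.2 in each replicate, rank 504 in replicate 1 and rank 564 in replicate 2. It covered chr7:30411068-30415235 (4168 bp) in replicate 1 and chr7:30411562-30415014 (3453 bp) in replicate 2. The summits lay 393 bp and 638 bp upstream of the 5′ end. In the replicated list the Tyrobp peak had a fold of 36.2 (rank 572) and the Hcst peak a fold of 47.0 (rank 106).

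Treml2, which encodes a TREM-like receptor of B cells, macrophages and neutrophils, had the lowest fold of the 4 marked genes. It spans chr17:48299498-48312533 on the forward strand. The fold of its promoter peak was 15.1 in replicate 1 (chr17:48299951-48301557, 1607 bp, rank 5317) and 17.2 in replicate 2 (chr17:48299884-48301659, 1776 bp, rank 4369). These ranks are the upper 18.0% and 14.9% of the lists. The summit lay in an intron in both, 314 bp and 312 bp downstream of the inner of its 2 protein-coding starts.

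The 4 unmarked genes differed in how far away the nearest peak lay. Trem1 (chr17:48232768-48246924) and Trem3 (chr17:48247777-48258841), which encodes a DAP12-coupled receptor of mouse macrophages, lie in a stretch of 93.9 kb without a peak in either replicate. The nearest peak was downstream of both, 28.5 kb and 28.4 kb from the nearest Trem1 start and 13.4 kb from the Trem3 start in each replicate, with folds of 3.89 and 4.26. Treml4 (chr17:48264295-48275360), whose product binds dying cells in mouse macrophages and dendritic cells, had its nearest peak 1754 bp and 1740 bp upstream, with folds of 6.11 and 4.86. In both lists made from both libraries it had a weak promoter peak, chr17:48263216-48263801, with a fold of 2.78 and rank 31243 of 32877 in the replicated list. Treml1 (chr17:48359916-48367176), known from platelets, had its nearest peak 2937 bp and 2917 bp upstream, and that peak was high, with folds of 26.5 and 26.3. No peak of either replicate lay over the body of Trem1, Trem3 or Treml1.

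The promoter sequences of 2 marked and 3 unmarked genes are shown to set the letters beside the marks. RefSeq's table for GRCm38.p6 held 5 of the 8 genes. Tyrobp, Treml2 and Trem3 were not matched. Each sequence runs 5′ to 3′ on the gene's strand, from 250 bases before the start to 50 after it. Capitals mark matches on either strand to 8 words. The word GGAAGT is bound by ETS factors such as PU.1, and so is the word GAGGAA, with which it can share bases. The word TGANTCA takes in the sites of AP-1 but allows any base at its centre. C/EBP factors bind TTGCNNAA, MITF and TFE factors bind CACGTG, and RUNX factors bind TGTGGT. The motif of NF-kB and the TATA box, TATAAA, complete the set.
Trem2, marked, chr17:48346151-48346450, forward strand: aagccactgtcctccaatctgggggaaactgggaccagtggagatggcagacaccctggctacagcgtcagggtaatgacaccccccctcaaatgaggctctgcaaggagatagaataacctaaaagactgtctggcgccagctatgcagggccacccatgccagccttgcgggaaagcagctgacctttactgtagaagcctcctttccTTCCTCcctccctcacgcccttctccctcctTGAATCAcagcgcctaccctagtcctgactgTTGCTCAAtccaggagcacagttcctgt
Hcst, marked, chr7:30419805-30420104, reverse strand: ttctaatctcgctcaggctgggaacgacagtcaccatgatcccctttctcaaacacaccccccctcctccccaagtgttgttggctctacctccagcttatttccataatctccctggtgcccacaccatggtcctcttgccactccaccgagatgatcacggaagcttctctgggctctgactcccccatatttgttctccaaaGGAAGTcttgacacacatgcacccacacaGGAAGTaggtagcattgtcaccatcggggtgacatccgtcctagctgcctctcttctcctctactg
Trem1, not marked, chr17:48232489-48232788, forward strand: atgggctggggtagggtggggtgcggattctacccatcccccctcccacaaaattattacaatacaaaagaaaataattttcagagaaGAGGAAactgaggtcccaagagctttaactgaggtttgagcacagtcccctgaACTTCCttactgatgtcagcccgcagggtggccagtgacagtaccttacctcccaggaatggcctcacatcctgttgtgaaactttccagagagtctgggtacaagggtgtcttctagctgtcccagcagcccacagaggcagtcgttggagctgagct
Treml4, not marked, chr17:48264045-48264344, forward strand: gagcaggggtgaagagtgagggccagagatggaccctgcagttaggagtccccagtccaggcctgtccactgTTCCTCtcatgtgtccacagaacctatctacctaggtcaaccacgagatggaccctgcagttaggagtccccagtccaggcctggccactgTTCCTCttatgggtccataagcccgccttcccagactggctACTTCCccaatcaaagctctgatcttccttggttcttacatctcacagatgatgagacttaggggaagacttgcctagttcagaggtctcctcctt
Treml1, not marked, chr17:48359666-48359965, forward strand: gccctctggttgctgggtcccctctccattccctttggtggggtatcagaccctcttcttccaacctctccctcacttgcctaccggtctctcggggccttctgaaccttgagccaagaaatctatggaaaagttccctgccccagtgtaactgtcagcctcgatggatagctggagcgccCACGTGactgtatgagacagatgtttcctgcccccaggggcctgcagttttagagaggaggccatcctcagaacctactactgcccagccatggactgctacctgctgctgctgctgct

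The words of ETS factors stood in marked and unmarked genes alike. The Trem2 window held TGANTCA in the form TGAATCA, with its first base 9 bases before the start, along with GAGGAA and TTGCNNAA. TGANTCA occurs in 7.81% of the 32841 promoters of the table, GAGGAA in 28.3% and TTGCNNAA in 10.8%. Hcst held GGAAGT at 2 places, 45 and 16 bases before the start, and this word occurs in 23.8% of promoters. Trem1 and Treml4, which had no promoter peak in the replicates, held both words of ETS factors, and Treml1 held CACGTG, found in 7.15% of promoters. None of the 5 windows held TGTGGT (16.8% of promoters), the NF-kB motif (8.46%) or TATAAA (13.6%). All 5 windows were at or below the table's median of 7 CpG, with 5 in Trem2 and 6 in Hcst, against 3 in Trem1, 2 in Treml4 and 5 in Treml1. A match is a description of letters and not evidence of binding.

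Across the whole Trem cluster with 25 kb on either side (chr17:48207768-48392176, 184 kb), replicate 1 had 12 peaks and replicate 2 had 15, a mean of 13.5 ± 2.12 (SD, n = 2). In each replicate 3 of them were promoter peaks, at Treml2, B430306N03Rik and Trem2, and 9 and 12 were distal. Joined where they overlap, the peaks formed 14 regions, of which 11 were in both replicates, 1 in replicate 1 alone and 2 in replicate 2 alone. Peaks covered 12.2% and 12.5% of the window, against 1.76% and 1.83% of chromosome 17. Their density was 6.51 and 8.13 per 100 kb, against 1.43 per 100 kb of chromosome 17 in each replicate. Windows of the same length were laid end to end along all chromosomes, deserts included, which gave 14769. Of these, 3.53% held at least as many peaks in replicate 1 and 1.47% in replicate 2. This describes where the cluster stands and is not a test.

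**Figure D2:**
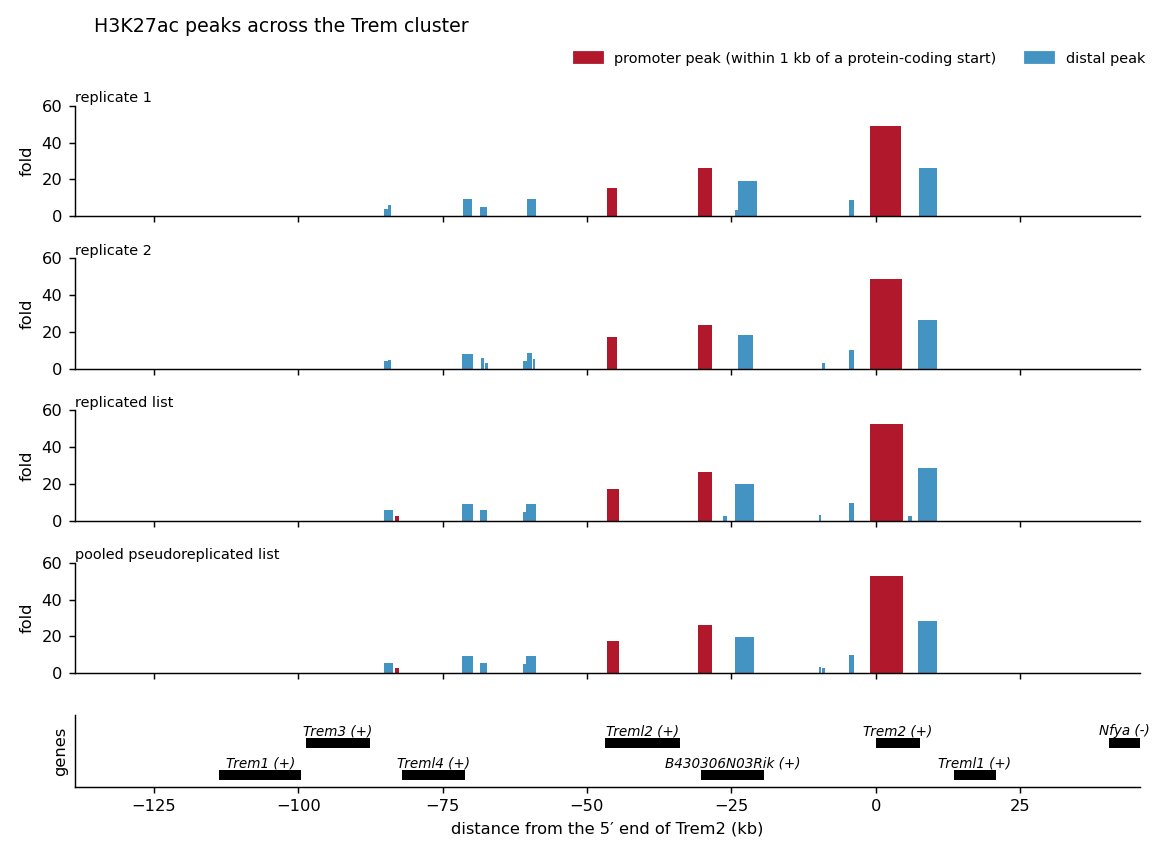
Peaks of the 4 lists across the Trem cluster, drawn to scale against the distance from the 5′ end of Trem2 (x axis, kb), with the fold of each peak as its height (y axis) and the genes with their strand at the bottom. Promoter peaks are red and distal peaks blue. The stretch that holds Trem1 and Trem3 has no peak, and in each list the highest peak of the window, at a fold of 48.8 or above, stands at Trem2.

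Trem2 was flanked by distal peaks on both sides. From within its 3′ end to beyond it lay the highest distal peak of the cluster. This peak covered chr17:48353957-48356979 in replicate 1 (3023 bp, fold 26.5, rank 1446) and chr17:48353808-48356999 in replicate 2 (3192 bp, fold 26.3, rank 1560). Its summit was intergenic, 2106 bp and 2132 bp beyond the annotated end of Trem2 and 3663 bp and 3637 bp upstream of the nearest Treml1 start. Upstream of Trem2, a peak of 929 bp in replicate 1 and 861 bp in replicate 2 lay with its summit 4133 bp and 4172 bp from the nearest start, with folds of 8.60 and 9.89 (ranks 11497 and 9929). A weaker one 8886 bp upstream (487 bp, fold 3.02, rank 28724) was in replicate 2 but not in replicate 1.

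Between Treml2 and Trem2 lies B430306N03Rik, a gene that RefSeq also lists as Treml6 and that was not among the 8. Its promoter peak reached a fold of 26.0 in replicate 1 (2429 bp, rank 1530) and 23.8 in replicate 2 (2476 bp, rank 2104), above that of Treml2 in both. A second peak inside the gene, with its summit in an exon 7970 bp and 7982 bp from the nearest start, had folds of 19.4 (3170 bp, rank 3328) and 18.4 (2583 bp, rank 3875). Next to it replicate 1 alone had a peak of 489 bp with a fold of 3.44 (rank 27595).

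The stretch from Treml4 to Treml2 held peaks of middle and low rank. Upstream of Treml4, paired peaks of 746 bp (folds 3.89 and 4.26, ranks 25912 and 23663) and of 522 bp and 539 bp (folds 6.11 and 4.86, ranks 16980 and 21308) were in both replicates. Over its 3′ end, with the summit 629 bp and 610 bp beyond it, lay a peak with folds of 9.12 (1620 bp, rank 10748) and 7.88 (1872 bp, rank 13009). Some 14.0 kb from the nearest Treml4 start replicate 1 had a peak of 1166 bp (fold 5.16, rank 19800), which replicate 2 split into 501 bp (fold 5.53, rank 18433) and 465 bp (fold 3.05, rank 28684).

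Upstream of Treml2, by 13.6 kb from summit to nearest start, replicate 1 had a peak of 1489 bp (fold 9.29, rank 10505). Replicate 2 split it into 781 bp (fold 8.71, rank 11622) and 466 bp (fold 5.45, rank 18876). Beside it replicate 2 alone had a peak of 609 bp with a fold of 4.02 (rank 24546), which the lists made from both libraries also held (fold 4.82). The differing counts of 12 and 15 peaks thus came from 2 split peaks and from weak peaks in 1 replicate alone.

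The replicated list had 15 peaks in the cluster window and the pooled pseudoreplicated list 14. Besides the Treml4 promoter peak, both held a peak of 402 bp with a fold of 3.34 that neither replicate had, 9649 bp upstream of the nearest Trem2 start. The replicated list alone added a peak of 842 bp in an intron of B430306N03Rik (fold 2.60, rank 32059) and one of 662 bp in an intron of Trem2 (fold 2.68, rank 31941). The pooled pseudoreplicated list alone added the 487 bp peak upstream of Trem2 that replicate 2 also had (fold 2.88, rank 30756).

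Around the adaptor genes (chr7:30388760-30444854, 56.1 kb) each replicate had 4 peaks, and the replicated and pooled pseudoreplicated lists had 3 each. In 4 regions, 3 were in both replicates and 1 in replicate 2 alone. All 4 peaks of replicate 1 and 3 of the 4 in replicate 2 were in the upper 10% of their list. Peaks covered 26.7% and 26.1% of the window, against 1.73% and 1.82% of chromosome 7. Of 48576 windows of this length, 5.87% and 5.82% held at least as many peaks in the replicates. In the replicated and pooled pseudoreplicated lists, where the locus had 3 peaks, 10.48% and 10.49% did. These shares too are a description and not a test.

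**Figure D3:**
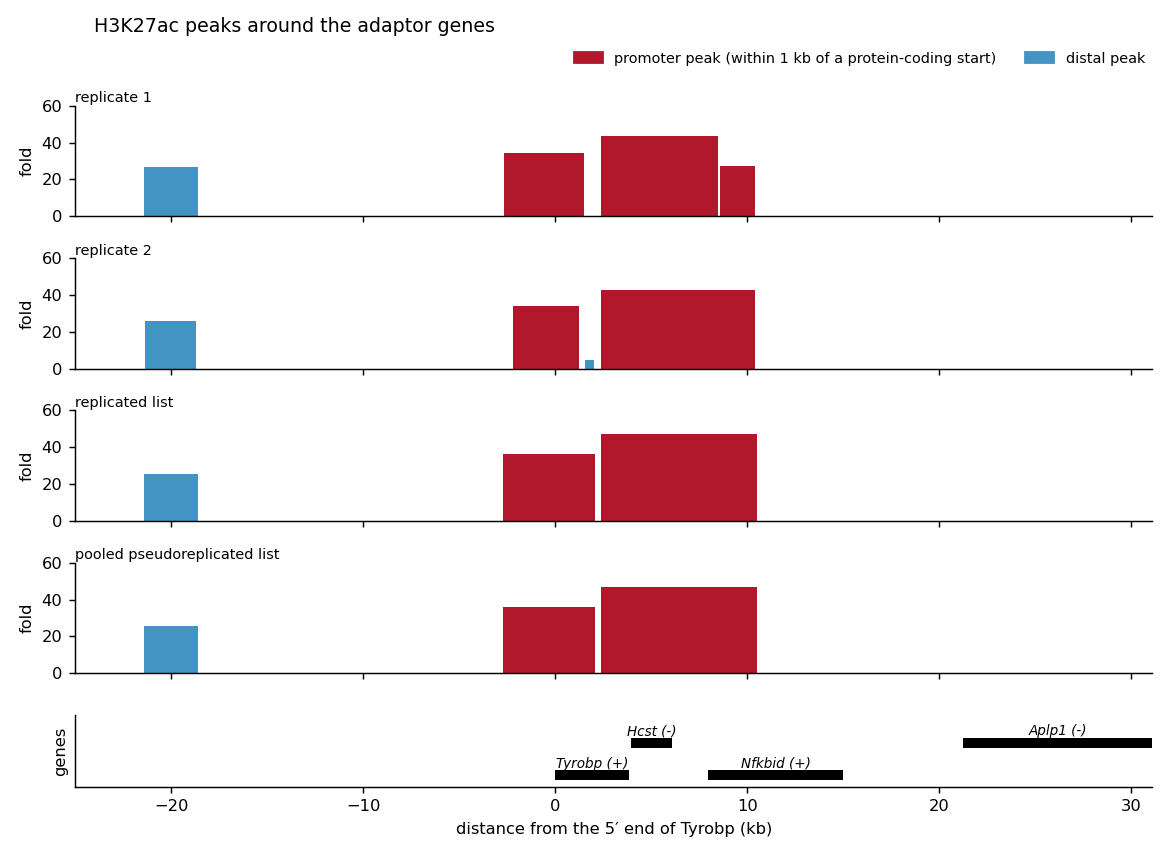
Peaks of the 4 lists around Tyrobp and Hcst, drawn to scale against the distance from the 5′ end of Tyrobp (x axis, kb), with fold as height (y axis), promoter peaks in red, distal peaks in blue, and genes with their strand at the bottom. The adaptor genes and the start of Nfkbid are under adjoining peaks with folds from 27.4 to 47.0, apart from a small peak of replicate 2 at 4.64, and a single distal peak stands about 20 kb to the left.

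Besides the promoter peaks, the adaptor window held a strong distal peak and a weak one. The strong peak had its summit 19.6 kb upstream of the Tyrobp 5′ end in each replicate, at chr7:30392327-30395180 in replicate 1 (2854 bp, fold 26.7, rank 1413) and chr7:30392388-30395073 in replicate 2 (2686 bp, fold 25.7, rank 1696). It is intergenic, and the next protein-coding gene on its other side is Lrfn3. The nearer annotated edge of Lrfn3 lies 31374 bp and 31418 bp from the summit. The weak peak was in replicate 2 alone, in a Tyrobp intron (chr7:30415295-30415783, 489 bp, fold 4.64, rank 22066). The lists made from both libraries joined it to the Tyrobp promoter peak, which there had a width of 4792 bp. No peak lay between the Nfkbid promoter and the right edge of the window in any of the 4 lists.

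The sequence at the summit of the highest distal peak of each locus is shown, since both peaks lay in the upper 10% of each list without lying at a start. Each is 200 bases of the forward strand of GRCm38.p6 about the summit of the replicated list, read for the same 8 words.
Downstream of Trem2, chr17:48356179-48356378: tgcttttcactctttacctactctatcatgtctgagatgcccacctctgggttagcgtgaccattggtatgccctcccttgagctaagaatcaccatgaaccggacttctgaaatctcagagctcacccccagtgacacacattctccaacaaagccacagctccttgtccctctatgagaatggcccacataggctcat
Upstream of Tyrobp, chr7:30394068-30394267: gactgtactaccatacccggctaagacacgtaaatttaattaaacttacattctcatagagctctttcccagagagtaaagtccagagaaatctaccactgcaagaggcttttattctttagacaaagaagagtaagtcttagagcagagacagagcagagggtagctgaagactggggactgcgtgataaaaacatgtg

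Neither window held any of the 8 words. Of the summits of 20037 distal peaks of the replicated list, 20.4% had GAGGAA within a window of this length. For GGAAGT the share was 13.6%, for TGANTCA it was 6.20% and for TTGCNNAA it was 7.82%. For TGTGGT it was 15.9%, for TATAAA 9.37%, for the NF-kB motif 3.95% and for CACGTG 2.63%. Each word is thus absent from most such windows, and the share of windows without any of them was not counted. No match says only that these letters are not within the 200 bases.

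In both loci together, 15 of 16 peaks of replicate 1 (93.8%, 95% Wilson interval 71.7 to 98.9) overlapped a peak of replicate 2 by at least 1 bp, and 16 of 19 of replicate 2 (84.2%, 62.4 to 94.5) overlapped one of replicate 1. Over the whole lists the shares were 91.3% and 88.6%. The intervals cover counting error only and treat neighbouring peaks as independent, so no comparison with the whole lists is read from them. The 4 peaks found in 1 replicate alone had folds of 3.02 to 4.64, below the median of their list.

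Other genes of the pathway were taken from 4 lists, again counted as marked in both replicates beside the 38.5% of all genes. The lists were chosen with earlier results of these data known, so no difference from that share is read. Of 21 receptors listed as pairing with DAP12 or DAP10 or signalling through them, 12 were marked (57.1%). The highest in the replicated list was Csf1r, the receptor for the macrophage growth factor (48.4 in replicate 1, 35.7 in replicate 2). Cd300lb followed with 41.3 and 40.7, and Cd300c2 with 27.2 and 27.6, and both encode activating receptors of myeloid cells. Cd200r3, Klra4 and Klra8 had no promoter peak, nor had Siglec15 and Siglech. Singled out after their values were seen, the natural killer cell receptors Klrk1, the best known partner of DAP10, Klrd1, Klrc2 and Ncr1 had none either. The same was the case for both Klra genes. The pairing of the listed receptors was not checked here, and Ncr1 also stands among the T and NK cell markers. Sirpb1a, Sirpb1b and Sirpb1c, Pilrb1 and Pilrb2, and Klra4 and Klra8 have close copies between which reads could be split.

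Of 30 genes of signalling downstream, 23 were marked (76.7%). Blnk, an adaptor downstream of Syk, had folds of 48.0 and 41.7. Grb2, the adaptor that DAP10 recruits, had 37.9 and 41.2, and Lat2, a membrane adaptor, had 36.5 and 30.3. Syk itself had 21.9 and 19.0. The kinase gene Fgr, Lat and the phospholipase gene Plcg1 had no promoter peak in either replicate. All 8 negative regulators were marked, led by Inpp5d, the lipid phosphatase SHIP1 (44.9 and 41.4), Ptpn6, the tyrosine phosphatase SHP-1 (31.5 and 27.5), and Dok1 (26.3 and 25.3), whose start lies 702 bp from that of Loxl3.

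Ligands, sheddases and other modulators were marked in 9 of 13 cases (69.2%). The lectin gene Lgals3 had folds of 40.8 and 46.1, and Hmgb1, a nuclear protein that acts as a danger signal outside the cell, had 29.1 and 31.5, with the start of Uspl1 71 bp away. Adam17, a protease that sheds Trem2, had 17.9 and 20.9. The gene of the lipoprotein ligand Apoe had 9.29 and 10.7, and Apoa1, Clu and Pglyrp1, whose product is a ligand of Trem1, had no promoter peak. With folds of 49.1 and 48.8, Trem2 had a higher promoter fold than any gene of the 4 lists in each replicate, with Csf1r next in replicate 1 and Lgals3 next in replicate 2.

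**Figure D4:**
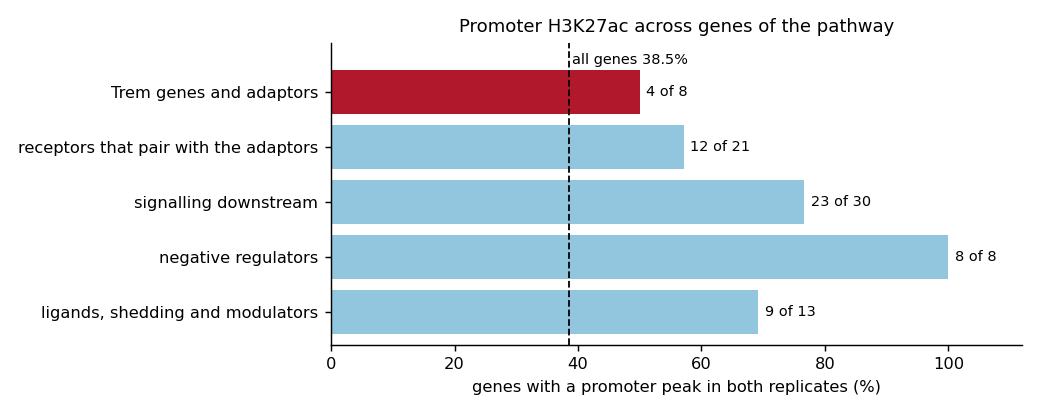
Share of genes with a promoter peak in both replicates (x axis, %) for the Trem genes and adaptors (red) and for 4 lists of other genes of the pathway (blue), with the numbers beside the bars. The dashed line marks the 38.5% of all genes with a protein-coding transcript. The lists were chosen with earlier results of these data known, and no difference was tested.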

How the data were processed

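H3K27ac was measured by ChIP-seq in 2 replicates of unstimulated bone marrow-derived macrophages. Per the notes deposited beside the lists, the authors made a peak list on mm10 from each replicate's alignments, and a replicated and a pooled pseudoreplicated list from both together. Each peak's deposited fold is a ratio on a linear scale, and its deposited q-value is a −log10. The lists made from both libraries carry the authors' values, with no SD or n. Aligner and peak caller, with their settings, the read depth and any scaling between lists are not given in the sources used here, so folds rank peaks within a list.

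Positions are 1-based on GRCm38.p6, the build of mm10. Genes and starts came from GENCODE M21, with 21866 genes that have a protein-coding transcript, and sequences from RefSeq. Peaks were placed against starts, windows and the other replicate by overlap of at least 1 bp and ranked by fold, in Python 3.11.15 with pandas 2.3.3, numpy 2.4.6 and scipy 1.17.1. The overlap and rank steps were tested on simulated data. No test between groups was possible with 1 group.

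The genes and lists were chosen with earlier results of these data known. Named were all 8 genes, neighbours whose promoter overlaps a peak, and from each pathway list the 3 marked genes highest in the replicated list and, of those with no promoter peak in the replicates, the first 3 by alphabet. Syk, Apoe, the natural killer cell receptors, Siglec15 and Siglech were added after their values were seen. Alternatives were promoter windows of 500 bp and 2.5 kb, other sets of starts, a minimum −log10 q of 5, the top 20000 peaks by fold, flanks of 10 and 50 kb, an overlap of 50% of both peaks, and each list alone.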

Additional observations from a re-analysis of the deposited data

How the results depend on the processing

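None of the counts of genes or peaks moved by over 1.5 times under the alternatives that were run. Where most genes of a list were marked, as with 8 of 8 negative regulators and 23 of 30 genes of signalling, a rise of that size was not possible. The number of marked genes among the 8 was 4 with a window of 500 bp, with the 5′ end alone, with all transcripts, with a −log10 q of at least 5 and without either replicate. It was 5 with a window of 2.5 kb and in each list made from both libraries, the added gene being Treml4 in all 3. Peaks in the Trem window averaged 13.5 per replicate, from 12 to 15 when 1 replicate was left out, 16 with 50 kb on either side and 10 among the 20000 peaks with the highest fold. Peaks in the adaptor window averaged 4, and 3 with 10 kb on either side. Distal peaks in both windows averaged 12, and 9.5 with a window of 2.5 kb. Shared peaks averaged 15.5, and 13 when 50% of both peaks had to overlap. No paired analysis was possible because the series has 1 group. Depth is unknown, so weak peaks near the threshold, such as those in 1 replicate alone, cannot be told from differences in depth.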

Other observations

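Beyond the window, to the right of the last Trem gene, the divergent genes Nfya, a subunit of the CCAAT-binding factor, and Oard1 shared a promoter peak with folds of 19.1 and 18.4. Between the peak downstream of Trem2 and the next peak, inside Nfya, lay 50.6 kb and 50.4 kb without a peak, a stretch that holds all of Treml1. The Trem cluster thus had a gap at each end, the other being the 93.9 kb around Trem1 and Trem3. Every peak of the cluster window in either replicate lay between Trem3 and Treml1. Chromosome 17 as a whole held 1.43 peaks per 100 kb in each replicate. How often gaps of these lengths occur was not counted, so neither gap is read as unusual.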
